A study of Astyanax mexicanus with 12 samples.

Results

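Among the genes of the larval liver of the Mexican tetra, Astyanax mexicanus, 116 of 17540 genes tested were higher at 7 than at 5 days post-fertilization (dpf) in Tinaja cavefish while their mean level in surface fish changed little. They were chosen on their measured levels. The change with age was taken as the difference of mean log2 CPM (the normalized read count of edgeR, relative to library size) between 7 and 5 dpf, after the libraries were scaled by the trimmed mean of M values method (TMM). Members had a change of at least 1 in Tinaja, which is a doubling, and a change within 0.5 of 0 in surface fish. All 3 Tinaja libraries at 7 dpf lay above all 3 at 5 dpf, and the mean log2 CPM over the 12 libraries was under 10. The rule would have taken the 150 genes with the highest change in Tinaja, but fewer met it, so all were kept.

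The series holds 4 groups of 3 libraries, namely Tinaja cavefish at 7 dpf, Tinaja at 5 dpf, surface fish at 7 dpf and surface fish at 5 dpf, with no other genotype or agent in the labels. Each library was made from the pooled livers of 40 larvae, taken from clutches that had been mixed across parent tanks. The older larvae were kept without food to 7 dpf. The study calls the younger stage fed and the older one fasting, so age and feeding state cannot be told apart. In a previous report that the paper draws on, surface larvae ran out of visible yolk before 5 dpf, and cavefish later than that. At 5 dpf the morphs may thus differ in the yolk left, which the labels do not record. Morph and yolk state cannot be told apart at that age, nor in the changes with age that start from it. Since each library is a pool, p-values reflect how far pools of a group differ, some of which may be technical, and in bulk tissue fewer cells of a type and less RNA per cell cannot be told apart.

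Larval fish live on maternal yolk until it is used up, after which an unfed larva has to draw on its own stores. In a fasting vertebrate the liver receives fatty acids released elsewhere in the body, burns part of them, makes glucose and ketone bodies for other organs, and may hold the excess as lipid droplets. Cave populations of this species live where food is scarce and are known for withstanding starvation better than the river-dwelling surface populations, and the comparison asks which liver transcripts answered the passage from the younger to the older stage in the cave morph alone. The deposited table gives gene identifiers without names, and 0 of 27420 identifiers matched the table of names at hand. No function is therefore attached to any member, pathways and cell type markers could not be examined, and the labelled tissue could not be checked against its markers.

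Libraries held 10.59 to 23.59 M counts in genes. Reads outside annotated genes made up 25.37 ± 2.14% in Tinaja at 7 dpf, 24.04 ± 5.26% in Tinaja at 5 dpf, 21.67 ± 0.924% in surface fish at 7 dpf and 30.67 ± 3.59% in surface fish at 5 dpf (SD, n = 3 each). The TMM factors ran from 0.6825 in Tinaja 7 dpf replicate 1 to 1.546 in surface 5 dpf replicate 1, so these 2 libraries were rescaled most.

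The rule split a wider group of genes. In Tinaja 909 genes had a change of at least 1, of which 538 also had libraries of the 2 ages that did not overlap and 527 of these a mean log2 CPM under 10. Of the 527 genes, 337 (63.9%) had a surface change above 0.5, 74 (14%) had a surface change below -0.5, and the 116 members (22%) lay between. The commonest course among genes higher at 7 dpf in Tinaja was thus a higher mean in surface fish as well. The share of all genes tested with such a surface change is not given here, so this is a description only. No gap in the values marks the members off from the other genes: the lowest change in Tinaja inside the set was 1.0026 and the highest outside 0.9992. On the surface side the highest change inside was 0.4984 against 0.5081 just outside, and the lowest was -0.4983 against -0.5058 just outside. The libraries of the 2 ages in Tinaja were 0.0042 log2 CPM apart in the member nearest to overlap.

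**Figure D1:**
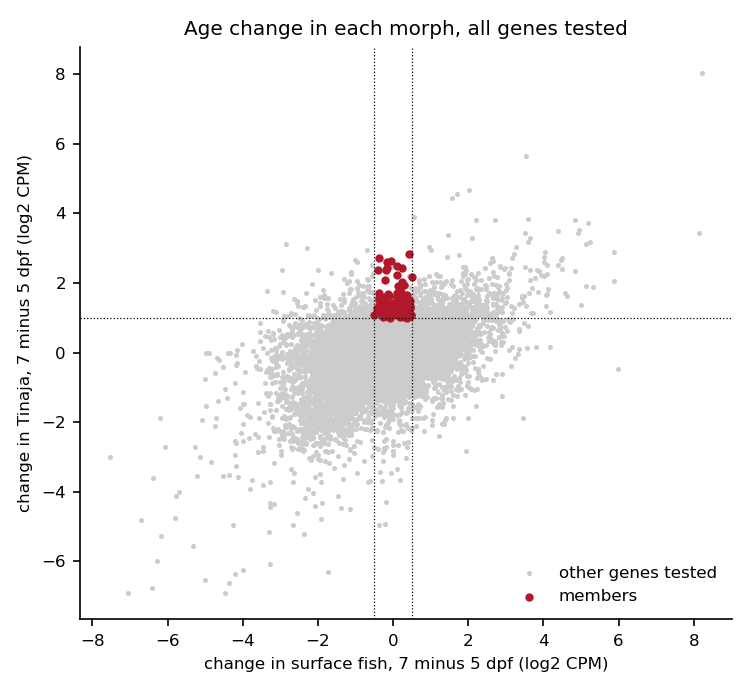
Change in Tinaja (vertical axis) and in surface fish (horizontal axis), 7 minus 5 dpf, for the 17540 genes tested, both as differences of group mean log2 CPM, with the 116 members in red and the limits of the rule as dotted lines. The members are a slice through the upper side of a continuous cloud, with changes of 1.003 to 2.836 in Tinaja.

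Within the set the change in Tinaja had a median of 1.303 on the log2 CPM scale. It lay between 1 and 1.5 in 83 members, between 1.5 and 2 in 20, and at 2 or more in 13. In surface fish the median change was 0.113, and it was positive in 68 members and negative in 48. These are the values that chose the members and are given as a description only, and the rule itself carries no error rate. Counts simulated without any change between groups gave a similar number of genes under the rule, so membership alone does not show a change. Surface fish had no age changes in the simulated counts, unlike in the measured ones, so this number is not a rate of false members.

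Members were on the whole weakly expressed. Their median level was 1.741 log2 CPM, against 2.991 over all genes tested, and 33 of them (28.4%) lay under 0 log2 CPM, against 14.2% of all genes. A further 47 lay between 0 and 3, 21 between 3 and 5, and 15 over 5. Together the 116 members took up 0.196% of the counts, and 103 of them had reads in all 12 libraries. The expression filter asked for about 0.619 CPM in at least 3 libraries, and 17 members (14.7%) reached this in fewer than 3 libraries outside the Tinaja 7 dpf group. Those 17 could enter only through the group in which the rule asked them to be high.

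The mean over members separated Tinaja at 7 dpf from the other groups. It was 2.749, 2.589 and 2.737 log2 CPM in the 3 Tinaja libraries at 7 dpf and 1.375, 0.935 and 1.51 in those at 5 dpf, against 1.84, 1.992 and 1.659 in surface fish at 7 dpf and 2.126, 1.56 and 1.583 in surface fish at 5 dpf. Surface fish thus lay between the 2 ages of Tinaja, and the 2 surface ages overlapped. The rule set the rise in Tinaja and the small change in surface fish. It also favoured low younger and high older Tinaja values, so these means are a description only. The summed level gave the same order of groups, with 3165 ± 608 CPM in Tinaja at 7 dpf and 1326 ± 374 CPM at 5 dpf, against 2031 ± 154 CPM in surface fish at 7 dpf and 1744 ± 343 CPM at 5 dpf (SD, n = 3 each).

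**Figure D2:**
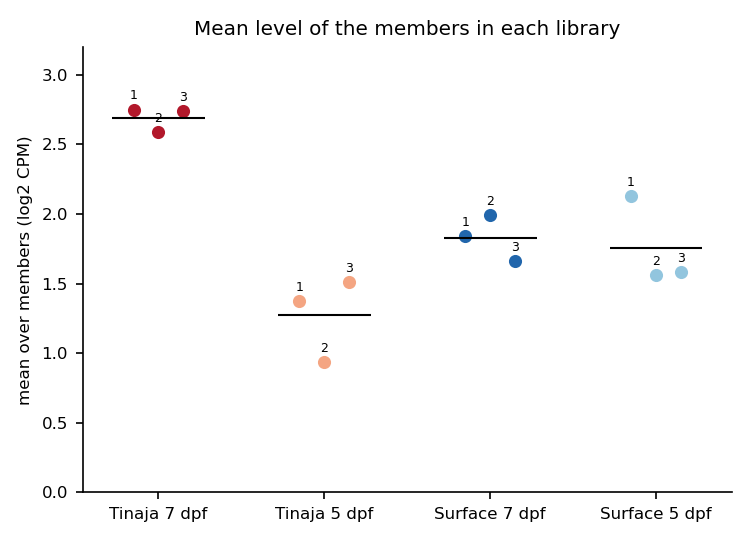
Mean log2 CPM over the 116 members in each library (points, numbered by replicate) for the 4 groups on the horizontal axis, with a line at each group mean. Tinaja lies at 2.589 to 2.749 at 7 dpf and 0.935 to 1.51 at 5 dpf, with both surface groups between 1.56 and 2.126. The rule that chose the members set the rise in Tinaja and the small change in surface fish.

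A single library weighed on the low end. Tinaja 5 dpf replicate 2 was the lowest of its group in 71 members (61.2%), against 33.9% of all genes tested, and the lowest of all 12 libraries in 46 members. The rule favoured low values in its group, and no share over all genes was computed for the 46, so nothing is read from them. Surface 5 dpf replicate 1 was the highest of its group in 68 members (58.6%), against 37.6% of all genes. When the rule was applied without Tinaja 5 dpf replicate 2, 76 of the 116 members met it, and without surface 5 dpf replicate 1, 77 did. Only 11 members met the rule without each of the 12 libraries in turn, and 4 of these averaged 3 log2 CPM or more.

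The word flat rests on the scaling as well. When libraries were scaled by their totals instead of by TMM, the median change of all genes in surface fish was -0.745, against -0.064 with TMM, and that of the members was -0.497. In 57 members the surface change was then below -0.5, and 27 of the 116 met the whole rule. As a share of all counts in genes, the members made up 0.2906 ± 0.049% in Tinaja at 7 dpf and 0.1382 ± 0.0613% at 5 dpf, against 0.1648 ± 0.00706% in surface fish at 7 dpf and 0.2373 ± 0.0742% at 5 dpf (SD, n = 3 each).

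The 4 members that met the rule without any 1 library and averaged 3 log2 CPM or more were picked out after their values were seen. ENSAMXG00000040185 measured 34.4, 15.1 and 47.4 CPM in Tinaja at 7 dpf and 6.21, 3.92 and 5.99 CPM at 5 dpf, against 8.33, 11.9 and 5.24 CPM in surface fish at 7 dpf and 10.3, 12.6 and 5.47 CPM at 5 dpf. Every Tinaja library at 7 dpf was above all 9 others, and its change was 2.44 on the log2 CPM scale in Tinaja against -0.15 in surface fish. It also had the second highest change among members with a mean log2 CPM of at least 3. ENSAMXG00000000786 was even among pools of the older Tinaja larvae, at 29.9, 30.5 and 31.9 CPM against 10.1, 5.13 and 19.4 CPM in the younger ones. In surface fish it stayed at 9.31, 7.40 and 8.08 CPM at 7 dpf and 9.97, 7.73 and 5.73 CPM at 5 dpf, so the older Tinaja libraries stood clear of the surface range while the younger ones overlapped it.

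ENSAMXG00000020084 took another course, low in the younger Tinaja larvae alone. It measured 10.7, 13.9 and 12.1 CPM in Tinaja at 7 dpf and 3.98, 2.48 and 6.89 CPM at 5 dpf, against 8.24, 15.6 and 12.9 CPM in surface fish at 7 dpf and 11.5, 11.4 and 8.30 CPM at 5 dpf. At 7 dpf the 2 morphs overlapped. ENSAMXG00000020763 overlapped surface fish at both ages, with 81.8, 58.9 and 60.7 CPM in Tinaja at 7 dpf and 27.5, 15.2 and 35.5 CPM at 5 dpf, against 59.1, 45.9 and 25.8 CPM in surface fish at 7 dpf and 75.1, 26.7 and 34.1 CPM at 5 dpf.

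The highest change among members with a mean log2 CPM of at least 3, at 2.64 in Tinaja, rested on 1 library. ENSAMXG00000035088 measured 31.6, 19.0 and 20.02 CPM in Tinaja at 7 dpf and 13.2, 0.173 and 12.6 CPM at 5 dpf, against 23.9, 37.5 and 26.0 CPM in surface fish at 7 dpf and 26.6, 32.7 and 30.5 CPM at 5 dpf. The second pool of the younger Tinaja larvae was nearly without reads while its group mates were not.

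The most abundant members moved by little more than the doubling the rule asks for. ENSAMXG00000037547 measured 485.5, 265.5 and 334.8 CPM in Tinaja at 7 dpf and 201.1, 134.7 and 158.7 CPM at 5 dpf, against 120.4, 120.4 and 132.6 CPM in surface fish at 7 dpf and 103.4, 101.1 and 113.2 CPM at 5 dpf. It was above every surface library of the same age at both ages. ENSAMXG00000006900 measured 282.9, 160.8 and 235.1 CPM in Tinaja at 7 dpf and 128.2, 93.7 and 95.6 CPM at 5 dpf, against 207.8, 153.0 and 224.4 CPM in surface fish at 7 dpf and 139.8, 155.4 and 123.2 CPM at 5 dpf. Its surface change of 0.47 was close to the limit of the rule, and 1 library of each morph kept the morphs overlapping at 5 dpf.

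**Figure D3:**
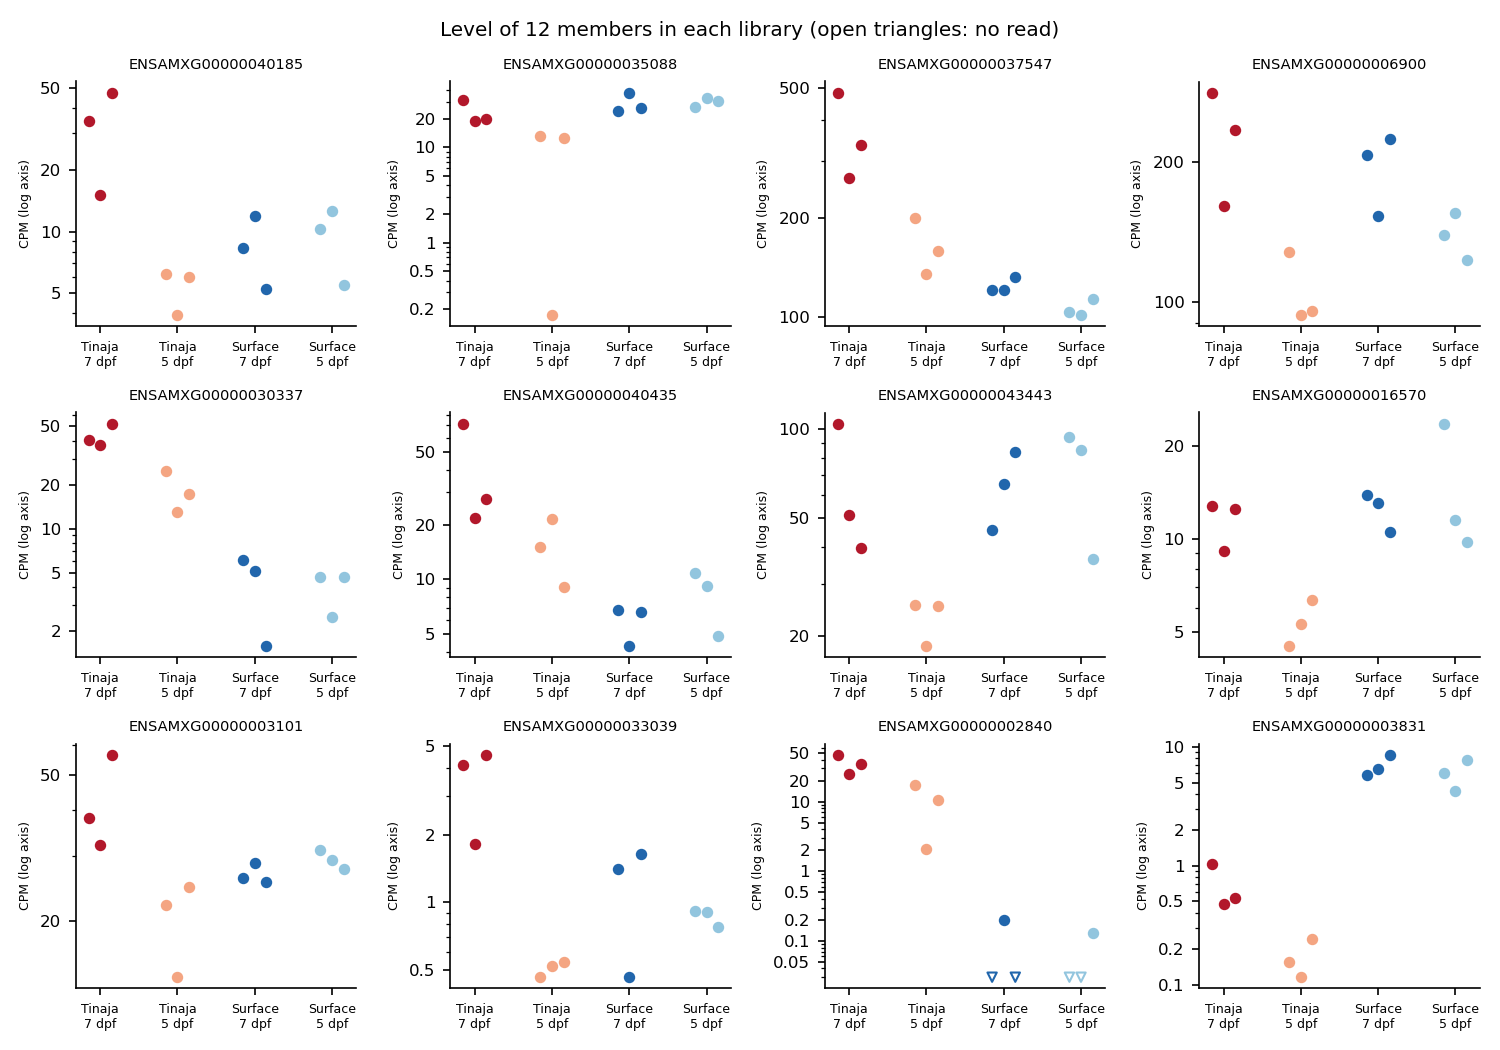
Level of 12 members in each library, in CPM on a log axis that differs between panels, with the 3 libraries of Tinaja at 7 dpf, Tinaja at 5 dpf, surface fish at 7 dpf and surface fish at 5 dpf from left to right and open triangles for libraries with no read. The panels show members that stand above surface fish only at 7 dpf (such as ENSAMXG00000040185), below it only at 5 dpf (such as ENSAMXG00000016570), or apart from it at both ages (ENSAMXG00000002840 above, ENSAMXG00000003831 below).

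On the log2 scale the fitted age changes of members had a median standard error of 0.511 in Tinaja and 0.501 in surface fish. In the edgeR quasi-likelihood fit over all genes, with an adjusted p under 0.1 as the threshold, 35 of the 116 members (30.2%) passed as higher at 7 dpf in Tinaja, where 2.25% of all genes tested passed in that direction, and 0 members passed as lower, against 4.72% of all genes. The rule used this contrast, so nothing is read from that count. Without Tinaja 5 dpf replicate 2 the members passing fell to 1 in place of 35, and all genes passing in either direction fell likewise, to 204 in place of 1223. In surface fish 0 members passed in edgeR, 0 had an unadjusted p under 0.05, and 0 passed with DESeq2 or limma-voom, where in edgeR 14.1% of all genes passed as higher and 14.4% as lower. The rule held the surface change within 0.5 of 0, so this 0 too was set by the choice of members.

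A surface mean near 0 does not show that a member stayed the same. The median of the 95% intervals of the fitted surface change reached 1.092 on the log2 scale to either side of the estimate. In 17 members (14.7%) the interval stayed within a doubling or halving, and 11 of these were among the 36 members with a mean log2 CPM of at least 3. It took in a doubling in 83 members, a halving in 59 and both in 43. For ENSAMXG00000037547, which was well measured, the fitted surface change was 0.23 with an interval of -0.34 to 0.80, and for ENSAMXG00000040185 it was -0.16 with an interval of -1.11 to 0.80.

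**Figure D4:**
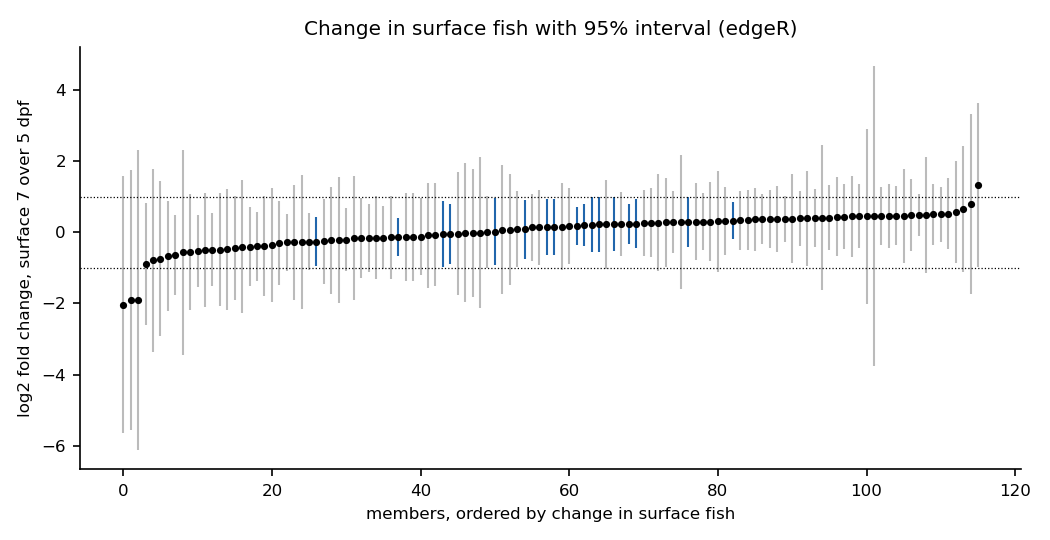
Fitted log2 fold change of surface fish, 7 over 5 dpf, for each member (points, ordered by value along the horizontal axis) with its 95% interval from edgeR (lines, blue for the 17 that stay within a doubling or halving, grey for the others). Most lines cross one of the dotted limits at a log2 fold change of 1 in either direction.

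The difference between the age effects, Tinaja minus surface fish, was not past the threshold in any member. In edgeR 0 of 116 passed, with 38 at an unadjusted p under 0.05 and a lowest adjusted p of 0.147, while limma-voom called 0. At the adjusted threshold, 0.0342% of all genes tested passed in edgeR with a more positive effect in Tinaja and 0.0114% with a more negative one. No share over all genes was computed for the unadjusted p, so the 38 has no background beside it. DESeq2 called 5 members, all with a more positive effect in Tinaja (4.39%, against 2.48% of all genes in that direction). The median fitted difference over members was 1.33 on the log2 scale with a median standard error of 0.709. Since the rule asked for a high change in 1 morph and a low change in the other, this size was given by the choice of members. Without Tinaja 7 dpf replicate 1 edgeR called 7 members, all with a more positive effect in Tinaja (6.14%, against 4.06% of all genes in the same fit and direction). The rule favoured this direction, so nothing is read from these counts.

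The level of the members in Tinaja against surface fish, averaged over both ages, was not a contrast of the rule. The rule used differences between ages and a cap on the mean level. The choice was not wholly free of this contrast, since a level near 0 in surface fish also holds the surface change near 0. The 9 members with fewer than 20 surface reads all passed as higher in Tinaja. They needed Tinaja libraries to reach the expression filter, so nothing is read from that count. The members fell to both sides. In edgeR 24 members were higher in Tinaja (20.7%, against 15.1% of all genes tested) and 23 were lower (19.8%, against 12.6%), and 69 did not pass. The median log2 fold change over the 116 members was -0.02, against -0.01 over all genes, and it was positive in 56 members. Of the 24 higher members 23 differed by at least 2-fold, as did 17 of the 23 lower ones. No share over all called genes stands beside these 2-fold counts, so nothing is read from them. Of the 24 higher members 9 were among the 17 that could enter only through Tinaja at 7 dpf. That was 52.9% of the 17, against 42.9% of all genes that entered in this way, so nothing is read from it. Among the 99 others, 15 (15.2%) were higher and 23 (23.2%) lower, against 14.4% and 12.9% of all genes that reached the filter in the same way, so the share of higher members was then close to that of all genes. Members that needed surface libraries to reach the filter, such as ENSAMXG00000003831, were not set apart. The share of lower members is therefore a description only.

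The 24 higher members had a median log2 fold change between morphs of 2.48, the 23 lower ones -2.08 and the 69 others -0.03. Their median changes with age in Tinaja were 1.379, 1.239 and 1.303 on the log2 CPM scale, in the same order, within the limits that the rule set for every member. Of the 24 higher members 11 had Tinaja libraries above all surface libraries at both ages, and the other 13 only at 7 dpf. Of the 23 lower members 7 had Tinaja libraries below all surface libraries at both ages, 15 only at 5 dpf and 1 at neither. Both the call and the rule favoured these positions, and no share over all called genes stands beside them. They are a description only.

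Among members with a mean log2 CPM of 3 or more, an adjusted p under 0.1 and a difference of at least 2-fold, 2 were higher with all Tinaja libraries apart from all surface libraries. The first was ENSAMXG00000030337, with the higher fold change. It measured 40.3, 37.1 and 52.2 CPM in Tinaja at 7 dpf and 24.7, 12.9 and 17.2 CPM at 5 dpf, against 6.08, 5.16 and 1.57 CPM in surface fish at 7 dpf and 4.65, 2.47 and 4.63 CPM at 5 dpf. All 6 Tinaja libraries were above all 6 surface libraries, with a log2 fold change of 2.77 ± 0.31 (SE) over both ages and an adjusted p of 0.000176 in edgeR. The other was ENSAMXG00000037547, the most abundant member, with 1.09 ± 0.19 (SE) and an adjusted p of 0.00239 in edgeR. No lower member met these conditions.

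The extremes were weakly expressed in 1 morph and were picked out after their values were seen. ENSAMXG00000002840 measured 47.5, 25.1 and 35.4 CPM in Tinaja at 7 dpf and 17.5, 2.08 and 10.7 CPM at 5 dpf. In surface fish it had 5 reads in all 6 libraries, against 2083 in the Tinaja libraries. The fitted log2 fold change was 8.34 ± 0.77 (SE) in edgeR. This gene reached the expression filter only through Tinaja libraries, so it had to be higher there, and its fold change is given as a description. ENSAMXG00000035123 had 336 reads in Tinaja and 1 in surface fish, a ratio of 340 after scaling with an exact 95% counting interval of 60.7 to 13500. It reached the expression filter only through Tinaja at 7 dpf, so that it had to differ, and its ratio is given as a description. In all, 9 members had fewer than 20 reads over the 6 surface libraries, and for these a surface change could hardly be measured at this depth. For such members the small change in surface fish is a level near 0 at both ages.

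On the other side ENSAMXG00000003831 measured 1.03, 0.472 and 0.535 CPM in Tinaja at 7 dpf and 0.155, 0.115 and 0.239 CPM at 5 dpf, against 5.76, 6.54 and 8.60 CPM in surface fish at 7 dpf and 6.06, 4.22 and 7.72 CPM at 5 dpf. Its log2 fold change over both ages was -4.21 ± 0.31 (SE) in edgeR. This gene needed surface libraries to reach the expression filter, so its fold change too is given as a description. Even the highest Tinaja library was well below the lowest surface library. ENSAMXG00000038667 was next, with 1.37, 1.89 and 0.993 CPM in Tinaja at 7 dpf and 0.569, 0.634 and 0.299 CPM at 5 dpf, against 6.27, 4.29 and 21.0 CPM in surface fish at 7 dpf and 15.6, 5.85 and 5.47 CPM at 5 dpf. It had a log2 fold change of -3.51 ± 0.47 (SE) and an adjusted p of 0.000519 in edgeR.

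**Figure D5:**
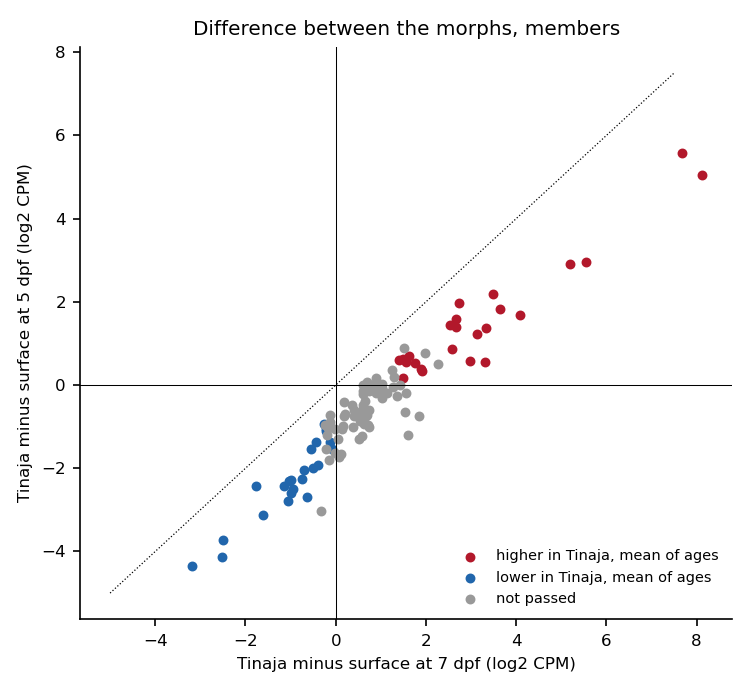
Tinaja minus surface fish in group mean log2 CPM at 7 dpf (horizontal axis) and at 5 dpf (vertical axis) for the 116 members, coloured by the edgeR result over both ages (24 higher in Tinaja, 23 lower, 69 not passed). Every point lies below the dotted line of equal differences, as the rule requires, and the points run from members low in Tinaja at both ages to members high at both.

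Taken age by age, the difference between the morphs had another sign at each end. At 5 dpf 29 members (25%) passed as lower in Tinaja and 10 (8.62%) as higher, against 7.22% and 8.77% of all genes tested, with a median log2 fold change of -0.68. At 7 dpf 30 members (25.9%) passed as higher and 4 (3.45%) as lower, against 10.6% and 7.71% of all genes, with a median of 0.69. These comparisons use the libraries that chose the members, so the shift between the ages belongs to the choice. The choice also favoured low Tinaja values at 5 dpf and high ones at 7 dpf, so how the shift was shared out is a description only. The Tinaja mean at 5 dpf was below both surface means in 81 members. At 7 dpf it was above both in 82, and 47 members did both. No share over all genes was computed for these counts, and the choice favoured them, so nothing is read from them.

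By single libraries, Tinaja lay below all surface libraries at 5 dpf in 39 members (33.6%, against 16.4% of all genes) and above them in 12 (10.3%, against 16.4%). At 7 dpf it was above all surface libraries in 43 (37.1%, against 15.6%) and below them in 7 (6.03%, against 12.2%). The courses were mixed. In 29 members (25%, against 12% of all genes) Tinaja was below surface fish at 5 dpf and among its libraries at 7 dpf. In 28 (24.1%, against 9.02%) it was among them at 5 dpf and above at 7 dpf, and in 37 (31.9%, against 50.5%) it overlapped at both ages. It was above at both ages in 12 members (10.3%, against 5.99%), below at both in 7 (6.03%, against 3.84%), and below at 5 dpf but above at 7 dpf in 3 (2.59%, against 0.599%). A move upwards relative to surface fish between the ages was built into the choice.

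Members of the first kind overlapped surface fish at 7 dpf and lay below it at 5 dpf. Overlap did not mean an equal level. The fitted log2 fold change at 7 dpf, Tinaja over surface fish, was -1.665 in ENSAMXG00000040883 and 1.048 in ENSAMXG00000038942. The members described next were closer to the surface level at 7 dpf. ENSAMXG00000043443 measured 104.4, 51.2 and 39.6 CPM in Tinaja at 7 dpf and 25.4, 18.5 and 25.3 CPM at 5 dpf, against 45.7, 65.1 and 83.7 CPM in surface fish at 7 dpf and 94.3, 85.0 and 36.4 CPM at 5 dpf. ENSAMXG00000016570 measured 12.8, 9.17 and 12.5 CPM in Tinaja at 7 dpf and 4.50, 5.31 and 6.35 CPM at 5 dpf, against 13.9, 13.1 and 10.5 CPM in surface fish at 7 dpf and 23.7, 11.5 and 9.79 CPM at 5 dpf. Their fitted log2 fold changes, Tinaja over surface fish, were 0.01 and -0.12 at 7 dpf and -1.64 and -1.48 at 5 dpf. Once the percentage of reads falling outside genes entered the model, neither passed at 5 dpf, with fitted log2 fold changes of -1.48 for ENSAMXG00000043443 and -0.91 for ENSAMXG00000016570. The members passing there then numbered 17 in place of 39, and all genes passing 1301 in place of 2804.

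Of the second kind, ENSAMXG00000040435 measured 71.6, 21.7 and 27.7 CPM in Tinaja at 7 dpf and 15.1, 21.5 and 9.10 CPM at 5 dpf, against 6.79, 4.29 and 6.58 CPM in surface fish at 7 dpf and 10.8, 9.16 and 4.89 CPM at 5 dpf. The ages in Tinaja nearly met, and the first pool at 7 dpf was far above the others of its group.

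The 3 members with all Tinaja libraries below surface fish at 5 dpf and above at 7 dpf were ENSAMXG00000003101, ENSAMXG00000030691 and ENSAMXG00000033039. They were singled out after their values were seen. In edgeR none differed between the morphs at 5 dpf, with adjusted p of 0.201, 0.176 and 0.402 in that order. At 7 dpf, where the choice favoured high Tinaja values, the adjusted p were 0.113, 0.388 and 0.0656, so only the last passed. ENSAMXG00000003101 had the most even surface levels, with 38.0, 32.3 and 56.6 CPM in Tinaja at 7 dpf and 22.1, 14.1 and 24.8 CPM at 5 dpf, against 26.2, 28.8 and 25.6 CPM in surface fish at 7 dpf and 31.3, 29.4 and 27.8 CPM at 5 dpf. ENSAMXG00000033039 measured 4.10, 1.82 and 4.58 CPM in Tinaja at 7 dpf and 0.466, 0.519 and 0.539 CPM at 5 dpf, against 1.40, 0.463 and 1.65 CPM in surface fish at 7 dpf and 0.918, 0.909 and 0.772 CPM at 5 dpf. ENSAMXG00000030691 stayed at or under 1.04 CPM in every library reached the filter only through Tinaja at 7 dpf, and sat next to the lower surface limit of the rule.

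Replicates of members were more scattered than those of other genes. The median SD between replicates, in log2 CPM, was 0.514 for members and 0.453 for all genes tested in Tinaja at 7 dpf, and 0.467 against 0.368 in Tinaja at 5 dpf. In surface fish it was 0.506 against 0.339 at 7 dpf and 0.520 against 0.350 at 5 dpf. The low level of the members stands beside this spread, and its part in it was not tested.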

How the data were processed

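Polyadenylated RNA from 12 pools of 40 dissected larval livers was made into stranded libraries and read as single 75 bp reads. According to the methods and the submitters' processing notes, reads were aligned with STAR 2.7.3a to astMex_2.0, and quantification is credited to RSEM 1.3.0. The authors deposited whole-number read counts for 27420 gene identifiers, with 4 summary rows in the form STAR writes, which were left out of library sizes and tests (reads outside genes are given in the report as a share). Which strand was counted is not stated in those sources, so reads of overlapping or antisense genes may be misassigned, and near-identical paralogues may lose reads.

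The counts were tested in R 4.3.3 with edgeR 4.0.16, by its quasi-likelihood test (TMM factors, filterByExpr on the 4 groups, robust dispersions, 1 mean per group, 8 residual degrees of freedom), with Benjamini-Hochberg adjustment over 17540 genes and a threshold of 0.1, the study's false discovery rate. Log2 CPM for the rule had a prior count of 2. CPM values are on TMM-scaled library sizes. Standard errors were derived from the F statistics. Alternatives were library totals, DESeq2 1.42.0, limma-voom (limma 3.58.1), no filter, the share of reads outside genes as covariate, a replicate block, other prior counts and leaving out each library. Intervals on reads cover counting error only. Replicates differed well beyond counting noise (chi-square per gene of at least 25.8), so none was counted as a copy. The tests were checked on simulated data. The rule that chose the members is not a test: applied to counts simulated without any change between groups, it selected genes in similar number, so membership alone does not show a change. The measured counts did hold age changes in surface fish, so the simulated number is not a rate of false members.

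The members and lists were chosen with earlier results of these data known. Members named in the report were, by rule, those with the highest change in Tinaja and a mean log2 CPM of at least 3 (2 members), the 2 highest and 2 lowest for Tinaja against surface fish (adjusted p under 0.1, at least 2-fold, the same minimum level, libraries not overlapping) and the 2 most abundant. Others are said to be picked after their values were seen. Lists of pathway and cell type genes were not analysed, since no names could be matched, and for the same reason no positions or sequences are given.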

Additional observations from a re-analysis of the deposited data

How the results depend on the processing

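For Tinaja against surface fish over both ages, 41 to 54 of the 116 members passed, in place of 47. These fits used other scalings, tools, filters and covariates, or left out any 1 library (41 to 51). Of the 47 members, 39 to 47 passed each time with the same sign. The fewest, 41 without surface 5 dpf replicate 1, were 35.3% against 24% of all genes. The most, 54 with DESeq2, were 46.6% against 31.4%. The 99 members that reached the filter outside Tinaja at 7 dpf, a choice made after seeing the data, gave 38. At 7 dpf leaving out 1 library gave 23 to 36 in place of 34 (19.8% to 31.6%, against 8.54% and 29.5% of all genes in the same fits). Without surface 7 dpf replicate 1, 19 were higher in place of 30 (16.4%, against 5.17% of all genes). At 5 dpf the 39 became 17 with reads outside genes as covariate (14.7%, against 7.42% of all genes) and 21 to 40 without 1 library. The count was 21 (18.1%) when either surface 5 dpf replicate 1 or Tinaja 5 dpf replicate 1 was left out, against 7.46% and 6.94% of all genes. The 10 higher members at 5 dpf became 6 with limma-voom (5.17%, against 8.06% of all genes). Without 1 library they became 5 to 11 (4.31% to 9.65%, against 4.44% and 11%). The 29 lower ones became 8 with the covariate (6.9%, against 3.18%) and 15 to 29 without 1 library. The 15 were those without surface 5 dpf replicate 1 (12.9%, against 2.72%).

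For 7 against 5 dpf in Tinaja, all members that passed were higher at 7 dpf, and shares of all genes are given for that direction. The 35 members became 8 (6.9%, against 1.47% of all genes) with library totals and 65 (57%, against 4.34%) with DESeq2. Leaving out 1 library gave 1 to 35. It gave 1 (0.862%, against 0.19%) without the second and 7 (6.03%, against 0.606%) without the first Tinaja library at 5 dpf. All genes passing in either direction then numbered 204 and 494, in place of 1223. Without the first or the third Tinaja library at 7 dpf 9 passed (7.89% and 7.76%, against 0.498% and 0.96%), and without surface 5 dpf replicate 2 22 did (19%, against 1.19%). In surface fish 0 became 7 lower with library totals (6.03%, against 41.5% of all genes as lower). It became 4 higher with the covariate (3.45%, against 2.91% of all genes as higher), and stayed 0 without any 1 library. For the difference of age effects the members called were all more positive in Tinaja, and shares of all genes are for that direction. The 0 became 5 with DESeq2 (4.39%, against 2.48%) and 5 without Tinaja 5 dpf replicate 3 (4.31%, against 1.68%). It became 7 without Tinaja 7 dpf replicate 1 (6.14%, against 4.06%), 0 to 7 in all. The rule used these age contrasts, so nothing is read from the counts. The rule kept 27 of its 116 members with library totals, 112 with DESeq2 size factors, 110 and 96 with prior counts of 0.5 and 5, and 76 to 105 without 1 library. The cause was not tested.

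Replicate numbers did not pair the libraries: deviations of same-numbered libraries correlated at -0.229 to 0.41, over 0.1 in 3 of 12 pairs. With the replicate number as a block 44 members passed over both ages (37.9%, against 22.5% of all genes). At 5 dpf 34 passed (29.3%, against 12.2%) and at 7 dpf 30 (25.9%, against 12.5%). Fold changes recomputed for 15 named members all kept their sign, which their choice favoured.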
